A study of Mus musculus with 20 samples.

Results

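Expression of 9 genes of the bone morphogenetic protein (BMP) pathway was examined in 20 caecum tumours, each measured on its own array. They were listed by their role in the pathway, by a rule without a threshold on measured values but with earlier results of these data known: the ligands Bmp2, Bmp4, Bmp5 and Bmp7, the secreted antagonists Grem1 and Chrdl1, and the target genes Id1, Id2 and Id3. They are 9 of the 17097 genes with a named probe set, and all 9 passed the filter on dim genes that left 15556 genes for testing. Where a gene had several probe sets, the one with the highest mean over all tumours was used.

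The tumours grew in C57BL/6J mice from 5 mouse tumour organoid (MTO) lines. Every line was represented by 2 tumours from mice given galunisertib, a small molecule that blocks the kinase of the type I TGF-beta receptor, and 2 from control mice. What the control mice received is not given in the sources used here. Parental LAKTP tumours came from lines MTO68 and MTO93, LAKTP tumours of the type labelled LiM from MTO140, parental LAKP tumours from MTO54 and parental LAKT tumours from MTO207. The genotype letters are not spelled out, and apart from MTO68, MTO93 and MTO140 each genotype was represented by 1 line. MTO140 was injected as spheroids in basement membrane extract under the serosa of the caecum, whereas the other lines first grew under the skin and were then moved to the caecum as small pieces. Dosing was 10 mg by gavage, 2 times per day, and ran from day 11 to week 5. Whole tumour pieces were used, so that every value mixes cancer cells with host cells, and in such bulk samples fewer cells of a type and less RNA per cell cannot be told apart. The 4 tumours of a line shared 1 strip of arrays. Differences between lines and between strips therefore cannot be told apart, and treated tumours were set against control tumours of the same strip. All values are log2 levels of a probe set, and levels of different genes were not set against each other.

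BMPs are secreted ligands of the TGF-beta superfamily. They bind complexes of type I and type II receptors that phosphorylate SMAD1, SMAD5 and SMAD9, which enter the nucleus with SMAD4 and raise transcription of the Id genes, whose products block basic helix-loop-helix transcription factors. The type I receptors of BMPs are distinct from the TGF-beta receptor that galunisertib inhibits. In the gut, BMP signalling is strongest in differentiated cells at the upper crypt and opposes stem cell identity, and stromal cells around the crypt base secrete antagonists such as gremlin 1 that bind the ligands and keep them from their receptors.

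The promoters of Grem1, Id2 and Id3 are shown because Grem1 had the largest treatment difference of the set and the Id genes are transcriptional targets of BMP signalling. Each is the 250 bases before the annotated start, from RefSeq on build GRCm38.p6, written 5′ to 3′ on the gene's own strand. Capitals mark GGCGCC, a palindrome and therefore the same on both strands, which resembles GC-rich elements described for BMP-regulated SMADs. The Grem1 window is chr2:113758649-113758898 on the minus strand, the Id2 window chr12:25096093-25096342 on the minus strand and the Id3 window chr4:136143572-136143821 on the plus strand.
Grem1: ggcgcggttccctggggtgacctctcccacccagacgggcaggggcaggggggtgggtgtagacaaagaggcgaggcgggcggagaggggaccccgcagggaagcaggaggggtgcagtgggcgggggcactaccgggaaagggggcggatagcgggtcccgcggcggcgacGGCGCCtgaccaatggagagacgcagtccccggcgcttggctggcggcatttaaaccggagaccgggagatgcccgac
Id2: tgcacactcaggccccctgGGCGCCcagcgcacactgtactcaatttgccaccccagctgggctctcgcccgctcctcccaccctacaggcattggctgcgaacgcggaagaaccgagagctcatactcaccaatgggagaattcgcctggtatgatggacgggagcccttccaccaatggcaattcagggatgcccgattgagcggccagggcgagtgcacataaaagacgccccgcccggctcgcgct
Id3: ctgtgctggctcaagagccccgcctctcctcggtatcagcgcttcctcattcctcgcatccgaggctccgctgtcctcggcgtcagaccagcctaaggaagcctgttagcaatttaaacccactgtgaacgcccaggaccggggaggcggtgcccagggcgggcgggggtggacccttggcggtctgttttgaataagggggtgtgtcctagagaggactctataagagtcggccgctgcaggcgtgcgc
GGCGCC began at position -78 relative to the start of Grem1 and at -231 relative to that of Id2, and these letters were not in the Id3 window. Among 32851 promoter windows of the same length 9.59% held it. Promoters of 5 of the 9 genes were matched by symbol, and the windows of Bmp4 and Bmp5 did not hold these letters. Bmp2, Bmp7, Chrdl1 and Id1 had no entry. A match describes the letters only.

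Galunisertib tumours had lower Grem1 than control tumours of the same line in each of the 5 lines, and the other 8 genes had no common direction. No gene of the set passed the test over 5 lines (limma, Benjamini-Hochberg adjusted p under 0.05), and neither did any gene at all, so that the share called was 0% of genes tested. At an unadjusted p under 0.05 there was 1 of the 9 genes, Grem1, against 1238 genes or 7.96% of all tested. The median difference over the 9 genes was -0.00 and that over all genes tested 0.00. The plot of levels by line shows the 20 values of each gene.

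**Figure D1:**
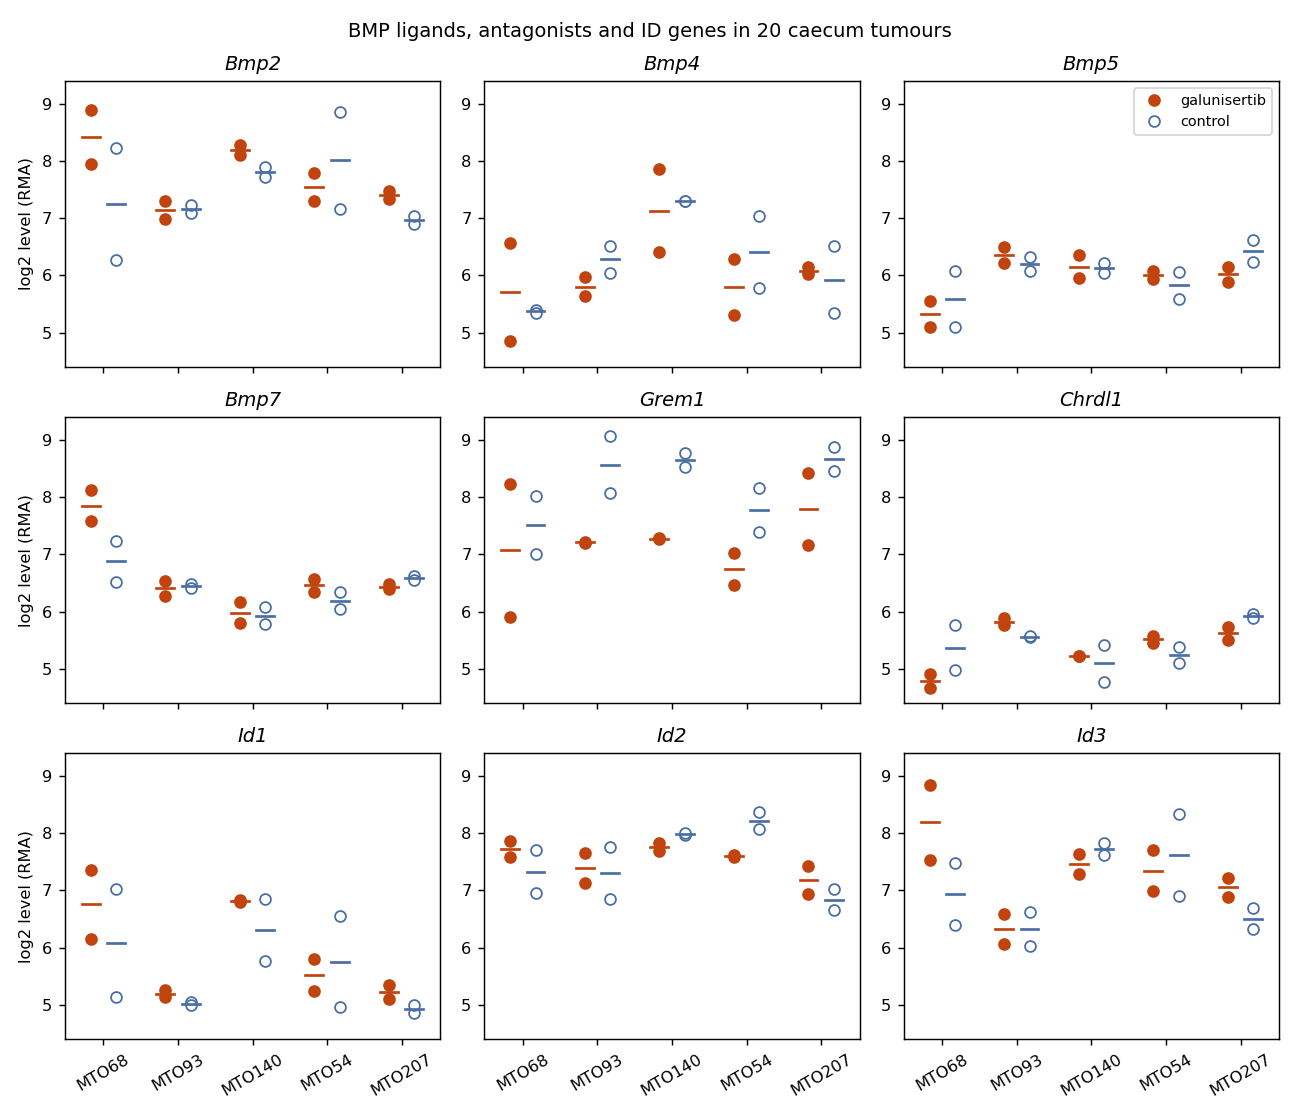
Log2 level of each of the 9 genes in every tumour (y axis, 1 panel per gene) by organoid line (x axis), with filled points for galunisertib and open points for control tumours and a bar at the mean of each pair of tumours. Grem1 is the gene whose galunisertib means lie below the control means in all 5 lines, and Bmp7 is highest in MTO68.

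Grem1, a secreted antagonist of BMP2, BMP4 and BMP7, measured 5.90 and 8.23 in galunisertib tumours of MTO68, against 8.03 and 7.01 in its control tumours. In MTO93 it was 7.21 in both galunisertib tumours and 9.07 and 8.07 in control tumours. In MTO140 it was 7.26 and 7.29 in galunisertib tumours and 8.77 and 8.53 in control tumours. In these LAKTP lines both treated tumours lay below both control tumours in MTO93 and MTO140, while the ranges overlapped in MTO68. MTO54 gave 7.03 and 6.47 in galunisertib tumours and 7.40 and 8.17 in control tumours. MTO207 gave 8.42 and 7.17 in galunisertib tumours and 8.45 and 8.87 in control tumours. In both of these lines, too, the treated tumours lay below the control tumours, by a narrow margin for 1 tumour of MTO207.

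The mean was 7.22 ± 0.73 in galunisertib tumours and 8.24 ± 0.65 in control tumours (SD, n = 10 each). The difference with the line as a block was -1.02 on the log2 scale (SE 0.26, unadjusted p = 0.000985), with an adjusted p of 0.222 by limma. It was lower in 5 of 5 lines, as were 3.28% of all genes tested. Separation of treated below control tumours in at least 4 of the 5 lines was seen for 0.874% of genes, and a difference of -1 or lower for 16 genes, or 0.103%. By line the differences were -1.38 for MTO140, -1.36 for MTO93, -1.03 for MTO54, -0.86 for MTO207 and -0.45 for MTO68 (SE 0.62 each). The test of whether they differ among lines had an adjusted p of 0.896, and the mean over the 3 LAKTP lines was -1.06 (SE 0.36, adjusted p = 0.355).

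Without line MTO68 the Grem1 difference was -1.16 (SE 0.19) and passed limma's test with an adjusted p of 0.0399, in a fit that called 0.0643% of all genes. MTO68 is the line in which 1 treated tumour had more Grem1 than both of its control tumours, so that its omission favours a call. Without MTO93, MTO140, MTO54 or MTO207 instead, Grem1 was not called, with limma adjusted p of 0.577, 0.591, 0.397 and 0.352 in turn. The adjusted p of Grem1 ran between 0.0367 and 0.642 over 37 alternative settings, 4 of which called it, and its difference was below 0 in 37 of 37, between -1.50 and -0.57. In MTO68 alone it was 0.06 (SE 0.63) with the fibroblast covariate.

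**Figure D2:**
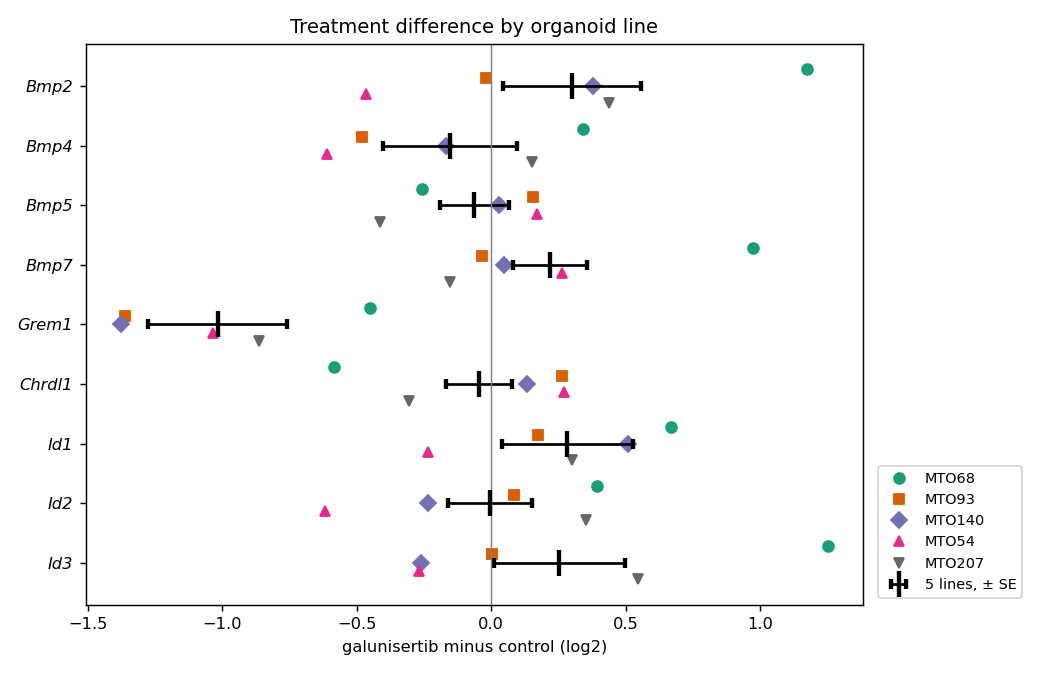
Difference of group means, galunisertib minus control, in log2 units (x axis) for each gene (rows) and line (coloured symbols), with the difference over 5 lines as a black bar and its SE. The Grem1 symbols lie between -1.38 and -0.45, and the symbols of each other gene fall on both sides of 0.

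Fibroblast markers moved with Grem1. The mean level of the 10 markers ranged between 6.46 and 7.25 in galunisertib tumours and between 6.63 and 7.91 in control tumours, with a difference of means of -0.55. Of the 10 markers 9 were lower in galunisertib tumours and none was called. Examples are Dcn, which encodes the matrix proteoglycan decorin, at -0.73, Col1a1, a chain of type I collagen, at -0.74 and Lum, which encodes lumican, at -1.50. Pdgfra, a defining fibroblast receptor, was the exception at 0.01, but its probe set never exceeded the filter level.

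Across the 20 tumours Grem1 correlated with the mean fibroblast marker level at Pearson's r = 0.637 (permutation p = 0.00264, adjusted 0.00839) and Spearman's rho = 0.657 (permutation p = 0.00231, adjusted 0.00891), with adjustment over 54 relations computed. Without the 2 tumours farthest from the median marker level r was 0.63. After line means were removed r was 0.71, and within lines of 4 tumours it was positive in 5 of 5, between 0.328 and 0.985. Treatment was not removed from these values, and neither treatment nor line was held fixed in the permutations. Tumours of the same line thus counted as independent. Both measures were on average lower in galunisertib tumours. A shared treatment difference therefore enters r and its p, and r among control tumours alone was not computed. With the fibroblast level as a covariate the Grem1 difference over 5 lines was -0.57 (SE 0.33, adjusted p = 0.188), in a fit that called 8.89% of all genes. The marker level was itself lower in galunisertib tumours and does not separate the number of fibroblasts from their RNA per cell. The part of the fibroblast fraction in the Grem1 difference was therefore not tested.

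**Figure D3:**
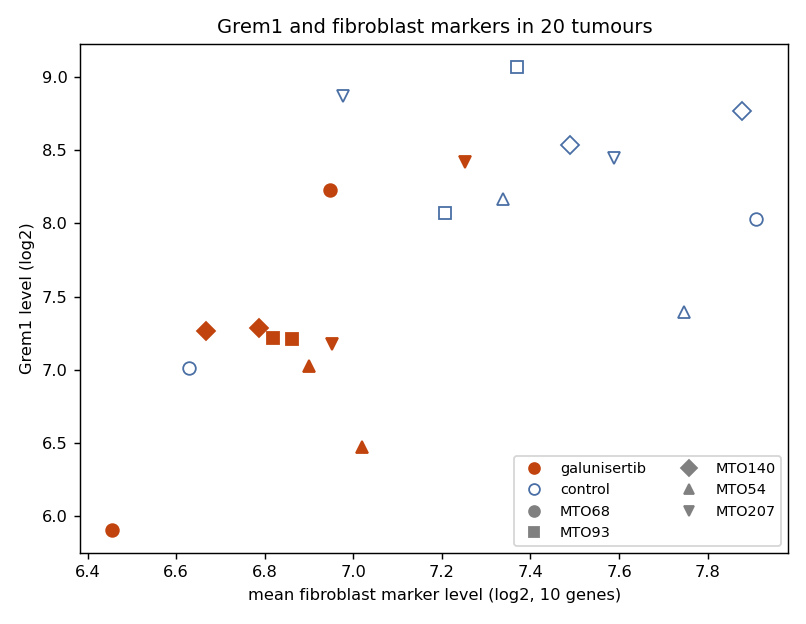
Log2 level of Grem1 (y axis) against the mean log2 level of 10 fibroblast markers (x axis), 1 point per tumour, filled for galunisertib and open for control, with a symbol per line. Treated tumours lie mostly at the lower left, and the lowest point, at 5.90 for Grem1 and 6.46 for the markers, is a galunisertib tumour of MTO68.

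Other host cell lists were lower in galunisertib tumours as well. The difference of mean levels was -0.49 for smooth muscle, with 7 of 7 genes lower, -0.39 for pericytes, with 3 of 3 lower, and -0.24 for endothelium, with 6 of 7 lower. Epithelial markers differed by 0.35, with 12 of 12 higher. Macrophage, T cell, enteric neuron and glia, mesothelial and adipocyte lists differed by between -0.14 and 0.10. No gene of these lists was called, and the epithelial markers Epcam and Cdh17 were above the filter level in every tumour, with lowest values of 9.65 and 7.12.

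Of all genes tested, those whose pattern over the 20 tumours was most like that of Grem1 were Zcchc24 (r = 0.846), Tmem119 (r = 0.819) and Pdpn (r = 0.79), which encodes podoplanin and is itself on the fibroblast list. After line means were removed they were Zcchc24 (r = 0.863), Sulf1, an extracellular heparan sulfate 6-O-endosulfatase (r = 0.856), and Tmem119 (r = 0.854). These are descriptions over tumours that share strips, and treatment was not removed.

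The second antagonist, Chrdl1 (chordin-like 1, a secreted BMP-binding protein), showed no common direction. In MTO68 it was 4.67 and 4.91 in galunisertib tumours and 4.98 and 5.76 in control tumours, and in MTO93 it was 5.88 and 5.77 in galunisertib tumours and 5.55 and 5.57 in control tumours. In MTO140 it was 5.23 and 5.22 in galunisertib tumours and 4.77 and 5.41 in control tumours. Treated tumours lay below control tumours in MTO68 and above them in MTO93, and overlapped with them in MTO140. In MTO54 it was 5.45 and 5.57 in galunisertib tumours and 5.11 and 5.38 in control tumours, and in MTO207 it was 5.73 and 5.50 in galunisertib tumours and 5.95 and 5.89 in control tumours. The groups were thus apart in 4 lines, with the treated tumours below in 2 and above in 2. With 2 tumours in each group, such separation within a line is common by chance. Its share over all genes was not computed line by line, here or for the genes below. Its difference over 5 lines was -0.04 (SE 0.12, adjusted p = 0.905).

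Of its 4 probe sets the third and the fourth exceeded the filter level in 0 tumours, and the second did so in 14. The values of the first followed the spread of each array, as given below.

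None of the 4 ligands passed the test between galunisertib and control tumours. Bmp2, a ligand made by both epithelium and stroma in the gut, averaged 7.74 ± 0.58 in galunisertib tumours and 7.44 ± 0.75 in control tumours (SD, n = 10 each). Its difference over 5 lines was 0.30 (SE 0.26, adjusted p = 0.737). It was higher in treated tumours in 3 lines and lower in 2.

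Bmp2 in MTO68 was 8.90 and 7.94 in galunisertib tumours and 8.23 and 6.27 in control tumours. In MTO54 it was 7.30 and 7.80 in galunisertib tumours and 8.87 and 7.16 in control tumours. The 2 control tumours of each of these lines were farther apart than the 2 treated ones, and the groups overlapped. In MTO93 it was 6.99 and 7.30 in galunisertib tumours and 7.10 and 7.24 in control tumours. MTO140 gave 8.10 and 8.28 in galunisertib tumours and 7.90 and 7.73 in control tumours, and MTO207 gave 7.48 and 7.34 in galunisertib tumours and 6.91 and 7.04 in control tumours. Treated tumours lay above control tumours in MTO140 and MTO207 and overlapped with them in MTO93.

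Bmp4, a ligand secreted mainly by stromal cells of the normal gut, averaged 6.11 ± 0.81 in galunisertib tumours and 6.26 ± 0.79 in control tumours (SD, n = 10 each), a difference of -0.15 (SE 0.25, adjusted p = 0.842). In MTO140 it was 7.86 and 6.41 in galunisertib tumours and 7.30 in both control tumours. The 2 treated tumours of MTO140 lay on either side of the control tumours. In MTO93 Bmp4 was 5.63 and 5.97 in galunisertib tumours and 6.05 and 6.52 in control tumours, the only line in which the groups did not overlap. In MTO68, MTO54 and MTO207 it ran between 4.85 and 6.58 in galunisertib tumours and between 5.34 and 7.04 in control tumours.

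Bmp5, another stromal ligand, averaged 5.97 ± 0.41 in galunisertib tumours and 6.03 ± 0.42 in control tumours (SD, n = 10 each), a difference of -0.06 (SE 0.13, adjusted p = 0.873). MTO207 was the only line in which the groups did not overlap for Bmp5, with 6.14 and 5.89 in galunisertib tumours and 6.23 and 6.63 in control tumours. Its 3 probe sets gave differences between -0.06 and 0.02 over 5 lines.

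Bmp7, a ligand of the same subgroup as BMP5, averaged 6.62 ± 0.69 in galunisertib tumours and 6.41 ± 0.40 in control tumours (SD, n = 10 each), a difference of 0.22 (SE 0.14, adjusted p = 0.69). MTO68 had the highest mean level of the 5 lines, with a range that overlapped those of the other lines except MTO140. There Bmp7 was 7.58 and 8.12 in galunisertib tumours and 6.51 and 7.24 in control tumours, so that both treated tumours lay above both control tumours. In MTO207 the order was the opposite, with 6.39 and 6.48 in galunisertib tumours and 6.62 and 6.56 in control tumours, and the 3 remaining lines overlapped. The difference in MTO68 was 0.97 (SE 0.25) with an adjusted p of 0.0588 by limma, in a comparison that called 2.01% of all genes and 0 of the 9. With quantile normalization it was 0.42 (SE 0.32, adjusted p = 0.396). The differences by line were not told apart by the test among lines (adjusted p = 0.563).

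All 3 Bmp7 probe sets placed MTO68 highest. The second probe set was 7.39 and 7.05 in galunisertib tumours of MTO68 and 6.05 and 6.61 in its control tumours, against no more than 5.09 in any tumour of another line. The third was 6.39 and 6.58 in galunisertib tumours of MTO68 and 5.39 and 5.28 in its control tumours, and MTO68 supplied the 4 tumours in which it exceeded the filter level. Over the 20 tumours the second and the third correlated with the first at r = 0.885 and 0.89. With the second probe set the MTO68 difference was 0.89 (SE 0.22, adjusted p = 0.0465, with 2.7% of all genes called), and with the mean of the probe sets it was 1.00 (SE 0.17, adjusted p = 0.00923, with 2.56% called). With the first probe set, whether Bmp7 was called in MTO68 also changed with the scaling, the covariate and the tumours used.

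**Figure D4:**
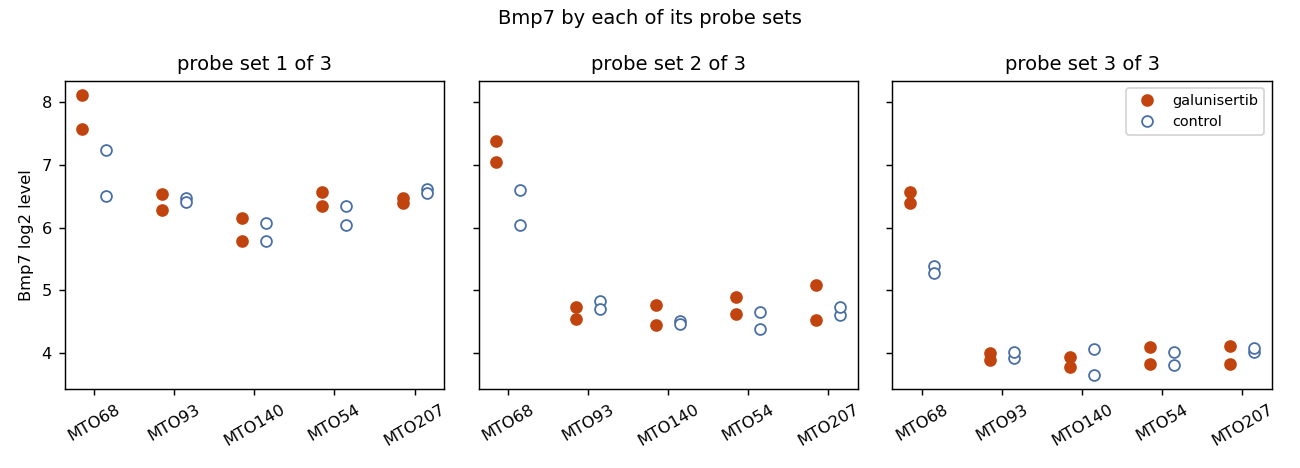
Log2 level of Bmp7 by each of its 3 probe sets (panels, y axis) in every tumour by line (x axis), filled for galunisertib and open for control. In each panel the galunisertib tumours of MTO68 are the highest points, and in the other two panels all 4 MTO68 tumours lie above those of the other lines.

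The 3 Id genes, which encode inhibitors of DNA binding and are direct targets of BMP-activated SMADs, did not pass the test between galunisertib and control tumours. Id1 averaged 5.90 in galunisertib tumours and 5.62 in control tumours, a difference of 0.28 (SE 0.24, adjusted p = 0.739). Id2 averaged 7.53 in galunisertib tumours and 7.54 in control tumours, a difference of -0.00 (SE 0.16, adjusted p = 0.992). Id3 averaged 7.28 in galunisertib tumours and 7.02 in control tumours, a difference of 0.25 (SE 0.24, adjusted p = 0.753). Id2 had the smallest SE of the Id genes.

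Id1 in MTO68 was 7.36 and 6.15 in galunisertib tumours and 7.03 and 5.14 in control tumours. In MTO140 it was 6.84 and 6.79 in galunisertib tumours and 6.85 and 5.76 in control tumours. In MTO54 it was 5.25 and 5.80 in galunisertib tumours and 6.56 and 4.96 in control tumours. In each of these lines 1 control tumour lay well below the other and the groups overlapped. MTO93 had 5.25 and 5.14 in galunisertib tumours and 5.04 and 5.00 in control tumours, and MTO207 had 5.35 and 5.10 in galunisertib tumours and 4.85 and 4.99 in control tumours. Treated tumours lay above control tumours in these 2 lines, by small margins.

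Id2 was 7.86 and 7.59 in galunisertib tumours of MTO68 and 7.71 and 6.95 in its control tumours, and 7.13 and 7.65 in galunisertib tumours of MTO93 against 7.76 and 6.86 in its control tumours. It was 7.69 and 7.83 in galunisertib tumours of MTO140 and 7.98 and 8.00 in its control tumours, and 7.58 and 7.63 in galunisertib tumours of MTO54 and 8.37 and 8.07 in its control tumours. Treated tumours lay below control tumours in MTO140 and MTO54 and overlapped with them in MTO68 and MTO93. In MTO207 Id2 was 6.95 and 7.43 in galunisertib tumours and 6.65 and 7.02 in control tumours, which overlap.

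Id3 was 8.85 and 7.53 in galunisertib tumours of MTO68, against 7.48 and 6.39 in its control tumours. It was 7.22 and 6.89 in galunisertib tumours of MTO207, against 6.33 and 6.69 in its control tumours. In these 2 lines the treated tumours lay above the control tumours. In MTO93, MTO140 and MTO54 the groups overlapped for Id3, with values between 6.07 and 7.71 in galunisertib tumours and between 6.03 and 8.33 in control tumours.

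Within single lines, as over all of them, 0 of the 9 genes were called by limma. The share of all genes called was 2.01% for MTO68, 0.00643% for MTO140, 0% for MTO93, MTO54 and MTO207, and 0.00643% over the 3 LAKTP lines. At an unadjusted p under 0.05 there were 3 of the 9 genes in MTO68 (Bmp7, Chrdl1 and Id3), where 33% of all genes had such a p, 1 in MTO93 (Grem1, against 1.09% of all genes), 1 in MTO140 (Grem1, against 3.63%) and 0 in MTO54 and MTO207, against 2.85% and 7.53%. None of the 9 differed in its treatment difference among lines at an adjusted p under 0.05, against 0.0643% of all genes.

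For several of the 9 genes the MTO68 difference depended on which control tumour entered. Bmp7 was higher in both treated tumours than in both control tumours. Its control values also differed, at 6.51 and 7.24, so that the size of its difference depended on the control tumour too. Control replicate 2 of MTO68 had an array spread of 1.47 and an epithelial marker level of 9.01, against 1.76 and 10.03 in control replicate 1. Without control replicate 1 the test called 5 of the 9 genes in MTO68, with Bmp2 at 2.15, Bmp5 at -0.75, Chrdl1 at -0.97, Id1 at 1.61 and Id3 at 1.80, in a fit that called 53.5% of all genes. Without control replicate 2 it called 0 of the 9 and 0.257% of all genes. With 1 control tumour left, its spread is assumed to be that of the other groups.

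Between lines, the order of mean levels over 4 tumours differed from gene to gene. Ranges were compared only between lines next to each other in that order, and in none of these 36 pairs were they apart. Lines farther from each other in the order could be apart, as for Bmp7 in MTO68 (6.51 to 8.12) and MTO140 (5.79 to 6.16). The share over all genes was not computed. Bmp4 averaged 7.22 ± 0.60 in MTO140, 6.10 ± 0.74 in MTO54, 6.04 ± 0.37 in MTO93, 6.00 ± 0.49 in MTO207 and 5.54 ± 0.73 in MTO68 (SD, n = 4 each). Bmp7 averaged 7.36 ± 0.67 in MTO68, 6.51 ± 0.10 in MTO207, 6.42 ± 0.11 in MTO93, 6.32 ± 0.22 in MTO54 and 5.95 ± 0.19 in MTO140 (SD, n = 4 each). MTO140 thus had the highest mean of Bmp4 and the lowest of Bmp7.

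LAKTP tumours of the LiM type were set against parental LAKTP tumours in control mice only, which asks whether the line types differ without drug. Of the 9 genes 0 were called, against 0.977% of all genes tested, while 7 of the 9 were higher in MTO140 with a median difference of 0.61, where the median over all genes was -0.00. Bmp4 differed by 1.47 (SE 0.51, adjusted p = 0.123), Id3 by 1.10 (SE 0.44, adjusted p = 0.153), Id2 by 0.67 (SE 0.28, adjusted p = 0.159) and Bmp7 by -0.73 (SE 0.22, adjusted p = 0.101). With treated and control tumours combined, Bmp4 differed by 1.42 (SE 0.36, adjusted p = 0.0201) and Bmp7 by -0.94 (SE 0.15, adjusted p = 0.0019), in a fit that called 13.5% of all genes. In control tumours the SD of array values was 1.83 and 1.66 in MTO140, 1.76 and 1.47 in MTO68 and 1.60 and 1.52 in MTO93. Several of the 9 genes followed that SD, as given below. With it as a covariate, the control differences of Bmp2, Chrdl1 and Id1 changed sign. The parental mean joins lines that themselves differed in Bmp7, with means of 7.36 in MTO68 and 6.42 in MTO93, against 5.95 in MTO140. By the second Bmp7 probe set, MTO140 control tumours had 4.51 and 4.46 and MTO93 control tumours 4.84 and 4.70. MTO68 control tumours had 6.05 and 6.61. MTO140 also differed from the parental lines in how it was implanted, and line type, strip and implantation cannot be told apart.

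Parental LAKP tumours (MTO54) against parental LAKTP control tumours gave 0 calls among the 9 genes and 1.33% among all genes. The smallest adjusted p was that of Id2, at 0.154, with a difference of 0.90 (SE 0.28). Id3 differed by 0.98 (SE 0.44, adjusted p = 0.362) and Bmp2 by 0.81 (SE 0.48, adjusted p = 0.531). Parental LAKT tumours (MTO207) gave 0 calls among the 9 genes and 0.0386% among all genes, with Chrdl1 at 0.46 (SE 0.20, adjusted p = 0.254) and Bmp5 at 0.54 (SE 0.25, adjusted p = 0.271). Id1, Id2 and Id3 were higher in MTO54 than in the parental LAKTP lines by 0.20, 0.90 and 0.98 and differed by -0.63, -0.48 and -0.12 in MTO207, none of which passed the test.

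Across the 5 control groups the test for any line difference called 0 of the 9 genes and 2.8% of all genes. Id2 came closest, with an adjusted p of 0.067, followed by Bmp7 at 0.0989. With treated and control tumours together 7 of the 9 genes were called, all except Bmp2 and Grem1, against 55.4% of all genes.

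Several of these genes followed a property of the arrays. The SD of an array's values ranged between 1.46 and 1.83, and the medians between 4.93 and 5.12. Over the 20 tumours the correlation with that SD was 0.896 for Id1, 0.835 for Bmp2, 0.787 for Id3 and 0.71 for Id2, and it was -0.953 for Chrdl1 and -0.643 for Bmp5. It was 0.215 for Bmp4, 0.072 for Bmp7 and -0.138 for Grem1. Of all genes tested 25.2% had a correlation of 0.7 or above and 29.2% one of -0.7 or below, so that following the array spread is common in these data. The part of the array spread in the line and treatment values of Bmp2, Chrdl1 and the Id genes was tested only by adding it as a covariate, with which the MTO68 difference of Bmp2 was 0.00 (SE 0.50), that of Id3 was 0.50 (SE 0.56) and that of Grem1 over 5 lines was -1.14 (SE 0.25, adjusted p = 0.0367, with 1.07% of all genes called).

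**Figure D5:**
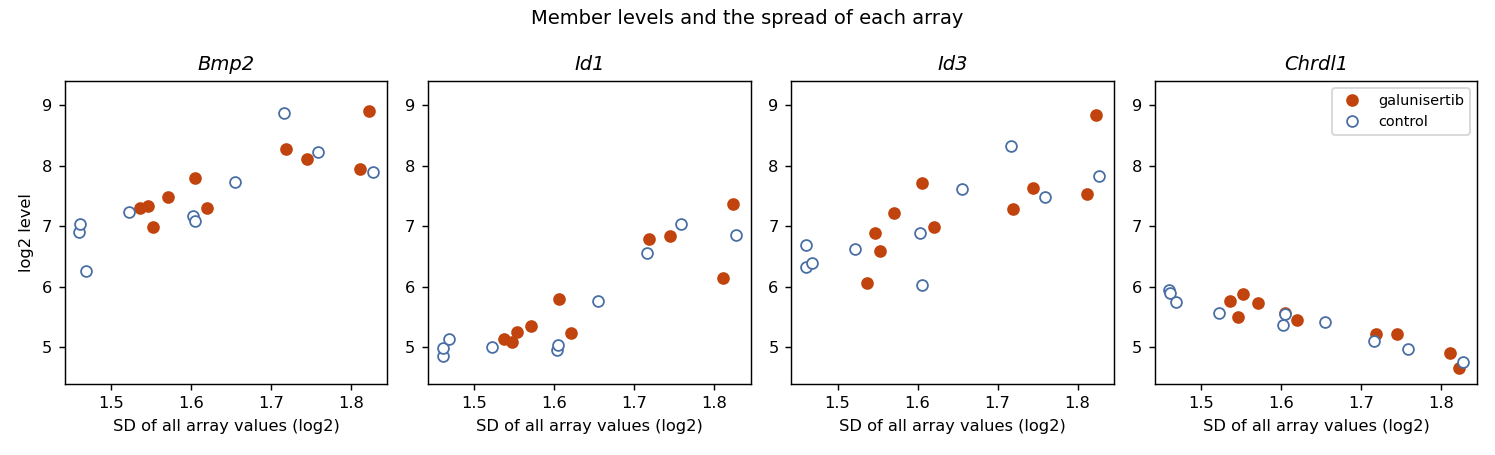
Log2 level (y axis) of Bmp2, Id1, Id3 and Chrdl1 against the SD of all values of the same array (x axis), 1 point per tumour, filled for galunisertib and open for control. Bmp2, Id1 and Id3 are higher on arrays with a wider spread, and Chrdl1 is lower on them, with r = -0.953.

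Bmp2 varied together with Id1 and Id3. Pearson's r over 20 tumours was 0.877 for Bmp2 and Id1 (permutation p = 1e-05, the smallest that the permutations can give, adjusted 7.71e-05, Spearman's rho = 0.859) and 0.877 for Bmp2 and Id3 (permutation p = 1e-05, adjusted 7.71e-05, rho = 0.85). Id1 and Id3 correlated at 0.83 (permutation p = 1e-05, adjusted 7.71e-05, rho = 0.809). Without the 2 tumours farthest from the median these were 0.836, 0.789 and 0.77. After both line means and array spread were removed they were 0.772, 0.684 and 0.56. The permutations shuffled all 20 tumours without regard to line, strip or treatment, so that tumours of the same line counted as independent. Their p-values belong to r before line means and array spread were removed, and none was computed afterwards. Within lines r of Bmp2 and Id1 was positive in 4 of 5, and in the remaining line it was -0.52. That of Bmp2 and Id3 was positive in 3 of 5 lines, with a lowest value of -0.687, and that of Id1 and Id3 in 4 of 5, with a lowest value of -0.025. After line means were removed, Id1 was among the 3 genes most like Bmp2 out of all tested (r = 0.915), and Bmp2 was the gene most like Id1. Of the 36 pairs among the 9 genes 14 had an adjusted p under 0.05, and all pairs share arrays and strips. The share among pairs of all genes tested was not computed. Because many of all genes follow the array spread, this count cannot be read as particular to the 9 genes.

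The rest of the pathway was taken from lists of 50 other BMP genes. Named probe sets existed for 44 of them, and 42 passed the filter. Over 5 lines 8 were higher and 34 lower in galunisertib tumours, and 0 were called by limma, as for all genes (0%). Of all genes tested 49.7% were lower. By role, the difference over 5 lines was below 0 for 6 of 6 further ligands and 13 of 13 antagonists and extracellular modulators. It was below 0 for 8 of 9 receptors and coreceptors, 3 of 9 intracellular transducers and inhibitors and 4 of 5 further targets. These counts are of signs only and were not the same in every line. Of the 6 ligands, 6 were lower in MTO68, 5 in MTO207, 3 in MTO93, 2 in MTO140 and 2 in MTO54. Of the 13 antagonists and modulators, 11 were lower in MTO68, 11 in MTO140, 10 in MTO207, 9 in MTO93 and 7 in MTO54. With the fibroblast covariate 26 of the 42 genes were lower over 5 lines.

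Among the extracellular modulators, Fstl1, a secreted follistatin-like glycoprotein, averaged 9.48 in galunisertib tumours and 10.24 in control tumours, with a difference of -0.77 (SE 0.22, adjusted p = 0.287). Bmp1, which despite its name is a metalloprotease that processes procollagen and cleaves chordin, averaged 8.06 in galunisertib tumours and 8.66 in control tumours, with a difference of -0.59 (SE 0.16, adjusted p = 0.268). With the fibroblast covariate the differences were -0.04 (SE 0.17) for Fstl1 and -0.22 (SE 0.19) for Bmp1, and without MTO68 control replicate 2 both passed the test, at -0.92 (adjusted p = 0.029) and -0.72 (adjusted p = 0.0209). Both were lower in 5 of 5 lines, as was Nbl1, a DAN-family antagonist, at -0.22 (SE 0.15, adjusted p = 0.696). Twsg1, which binds BMPs together with chordin, differed by -0.05 (SE 0.16) and Crim1, a membrane protein that binds BMPs, by -0.02 (SE 0.11). Bmper, another BMP-binding modulator, is given although chosen after its values were seen: it averaged 3.95 in galunisertib tumours and 4.42 in control tumours (difference -0.47, SE 0.15, adjusted p = 0.38, and -0.09, SE 0.17, with the fibroblast covariate), so that its treated mean lay below the filter level of 4.16, and, like Grem1, its treated tumours lay below the control tumours in 4 of 5 lines.

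Of the further ligands, Bmp8b differed by -0.06 (SE 0.15), Bmp8a by -0.08 (SE 0.11) and Gdf2, which encodes BMP9, by -0.14 (SE 0.11). The type II receptor Bmpr2 differed by -0.16 (SE 0.14), the type I receptor Acvr1 by -0.21 (SE 0.14) and the coreceptor Rgmb by -0.24 (SE 0.14). Smad4, the shared partner of the receptor-activated SMADs, differed by 0.30 (SE 0.16), Smad1 by 0.05 (SE 0.20) and Smurf1, a ubiquitin ligase that targets SMAD1 and SMAD5, by 0.18 (SE 0.16). Of the further targets Hey1 differed by -0.23 (SE 0.08), Msx1 by -0.10 (SE 0.09) and Id4 by 0.06 (SE 0.14). None of these passed the test over 5 lines, with adjusted p between 0.493 for Hey1 and 0.929 for Smad1.

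Line differences in control tumours were called for a few of these further genes. Crim1 was higher in MTO140 than in parental LAKTP control tumours by 1.28 (SE 0.22, adjusted p = 0.0176), with 7.99 and 7.82 in MTO140 and 6.53, 6.09, 7.01 and 6.86 in MTO68 and MTO93, so that the groups did not overlap. Bmp8b was higher in MTO54 by 1.79 (SE 0.27, adjusted p = 0.00542), with 8.88 and 7.85 in MTO54 and 6.22, 6.57, 6.49 and 7.01 in the parental LAKTP lines. Nbl1 was higher in MTO54 by 1.48 (SE 0.31, adjusted p = 0.0339), with 8.10 and 6.75 in MTO54 and 5.94, 5.63, 6.26 and 5.96 in the parental LAKTP lines. Both were apart from the parental tumours, although the 2 MTO54 control tumours differed by more than 1 from each other. Without MTO140 control replicate 1 Crim1 differed by 1.19 (adjusted p = 0.414), and without MTO54 control replicate 1 Bmp8b differed by 1.28 (adjusted p = 0.166) and Nbl1 by 0.81 (adjusted p = 0.749), and none of the 3 passed. The 42 genes gave 1 call for MTO140 and 2 for MTO54, beside shares of 0.977% and 1.33% among all genes.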

How the data were processed

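Whole tumour pieces were profiled with 1 array per tumour. The authors' deposited values are log2 levels per probe set. They were produced with RMA (background correction, quantile normalization and summary of probes) in affy, per the submitters' processing notes. The sources used here do not give their versions. Galunisertib is the reading of the treatment label LY, from the labels' protocols.

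Of 45141 probe sets, the platform annotation gave 28898 a single symbol, 551 several and 15588 none, and 104 were controls. Current symbols were found through Entrez ID for 28689. Each of 17097 genes was represented by its probe set of highest mean. A gene was tested if it exceeded a log2 level of 4.16 (the 25th percentile) on 2 or more arrays, which 15556 did. The number of arrays limits the precision. No 2 arrays were identical.

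Line as a block and treatment entered the fit over 5 lines (limma 3.58.1, R 4.3.3, eBayes with trend). For the rest, limma was fitted with 10 group means. Tests were two-sided, and p-values were adjusted by Benjamini-Hochberg across the 15556 genes (threshold 0.05). Replicates were 2 per group, biological according to the design text. Correlations over tumours used 100000 permutations of all tumours, without regard to line, strip or treatment (SciPy 1.17.1), and figures used matplotlib 3.10.9. The fits were tested on simulated data. Alternatives were other filters, probe sets, normalizations, variance settings and covariates, and omission of each array or line.

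The 9 genes and the gene lists were chosen with earlier results of these data known. From each list the 3 genes of highest mean and those called were named.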

Additional observations from a re-analysis of the deposited data

Results flagged for a closer look

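In MTO140 tumours Id1 was 5.76 in control replicate 2, the lowest of the 4 tumours, and the nearest value was 6.79. Of 63 groups of 4 or 10 tumours examined this way 1 had a tumour so far from the others. Chance gives about 1 in every 20 groups, so that 1 of 63 is no more than chance gives.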

How the results depend on the processing

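No paired analysis was possible because the labels give no replicate numbers that link treated with control tumours. Of 2871 recomputed differences of the 9 genes 141 changed sign, 129 of them where the difference was within its SE. Counts of the 9 genes called were 0 in each comparison. The counts below stand beside these shares of all genes called, with the second probe set and the mean of probe sets in turn. They were 2.7% and 2.56% in MTO68, 0.986% and 1.35% for MTO140 minus parental, and 1.09% and 1.47% for MTO54 minus parental. Among control groups they were 2.16% and 2.66%. In MTO68 the share was 1.96% with median centring and 0.399% with array spread as a covariate. Over 5 lines the count was 1 (Grem1) with quantile normalization at -1.08, with an epithelial covariate at -1.50, with array spread as a covariate at -1.14 and without line MTO68 at -1.16. Omission of single arrays or lines gave between 0 and 1 calls and -1.22 to -0.89 for Grem1, and its adjusted p without single arrays was 0.0626 to 0.421. In MTO68 it was 1 (Bmp7) with the second probe set, the mean of probe sets, median centring or array spread as a covariate, 4 with the fibroblast covariate (Bmp2, Bmp7, Chrdl1 and Id3, beside 51.3% of all genes), and 0 to 5 without single arrays. Over the LAKTP lines it was 2 with the fibroblast covariate (Bmp2 and Id1, beside 26.7%) and 0 to 1 without single arrays, the 1 being Grem1 at -1.45 without MTO68 galunisertib replicate 2. For MTO140 minus parental LAKTP it was 1 (Bmp7) with the second or mean probe sets, 2 with both treatments together, and 0 to 6 without single arrays, the 6 without MTO68 control replicate 1, which called 40.8% of all genes. For MTO54 it was 1 (Bmp7) with the second probe set, mean probe sets or both treatments together (the last beside 5.84%), and 0 to 1 without single arrays (Id2 without MTO68 control replicate 1, beside 9.9%). For MTO207 it was 0 to 2 without single arrays, the 2 being Bmp5 and Chrdl1 without MTO68 control replicate 2, which called 32.6%. The test among treatment differences gave 0 to 1 without single arrays (Chrdl1 without MTO68 control replicate 1, beside 18% of all genes). The test among control groups gave 1 (Bmp7) with the second or mean probe sets, 7 with both treatments together, and 0 to 4 without single arrays: 4 without MTO68 control replicate 2 (beside 47.1%), 3 without MTO68 control replicate 1 (beside 41.9%) and 1 without MTO140 control replicate 2.

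Among differences larger than their SE, the sign turned with array spread as a covariate for Id1 in MTO68 (-0.74), Id2 in MTO68 (-0.06), Bmp2, Chrdl1 and Id1 in MTO140 minus parental (-0.27, 0.04 and -0.30) and Id1 in MTO207 minus parental (0.25). It also turned for Id2 in MTO68 with quantile normalization (-0.04) and for Grem1 in MTO140 minus parental with the epithelial covariate (-0.42). Without single arrays Id1 in MTO68 ran between -0.28 and 1.61 (lowest without control replicate 2), Bmp4 in MTO54 between -1.24 and 0.02, and, in MTO54 minus parental, Bmp2 between -0.05 and 1.66 and Bmp4 between -0.06 and 1.21, with the turned values without an MTO54 control tumour. Smaller differences also turned in MTO68: Bmp5 with array spread (0.25) and Grem1 with the fibroblast covariate (0.06). The cause was not tested. Over 5 lines the genes called among all tested numbered 0, and 55 with quantile normalization, 116 with array weights, 166 with array spread, 1383 with the fibroblast covariate, 5 with the epithelial covariate, 10 without line MTO68, 43 without MTO68 control replicate 2 and 20 without MTO54 control replicate 2. Of the further BMP genes between 24 of 31 and 36 of 44 were lower over 5 lines under other filters. Of those named, and of differences larger than their SE, Nbl1, Bmpr2 and Acvr1 changed sign with the fibroblast covariate (0.02, 0.19 and 0.04) and Smurf1 with the second probe set (-0.04). Twsg1 (0.31) and Crim1 (0.17), within their SE before, turned with the fibroblast covariate. Fstl1 and Bmp1 were each called in 4 of 37 settings, and Smurf1 (0.58, adjusted p 0.0471) and Msx1 (-0.37, adjusted p 0.0431) in 1 each, with the fibroblast covariate. The line differences of Crim1, Bmp8b and Nbl1 were called in 25 of 31, 30 of 32 and 22 of 32 settings. For Crim1 the call was also lost without either MTO93 control tumour (adjusted p 0.0544 and 0.0588), and for Nbl1 without any of 7 further tumours (0.0513 to 0.106).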
